A study of Mus musculus with 2 samples.

Results

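Accessible chromatin was described at 6 genes whose products mark regulatory T cells at the surface or in the cytosol: Nrp1, Gpr83, Izumo1r, Cd81, Ly6a and Capg. They are 6 of the 21938 protein-coding genes of the annotation. They were named as a set rather than ranked by a measured value, but with earlier results of these data known. A region belonged to a gene when it overlapped the gene body, or when its strongest summit had a transcription start site (TSS) of that gene as the nearest protein-coding TSS within 100 kb. By this rule 25 of the 26090 regions of the deposited list past an irreproducible discovery rate (IDR) threshold belonged to the 6 genes, and none belonged to more than 1 of them. Accessibility says nothing directly of transcript or protein, so the markers' status as markers was not measured here.

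The assay was ATAC-seq, in which a transposase inserts adapters where DNA is open. The cells were activated regulatory T cells, labelled as primary cells from adult male mice aged 4 months that carry the alleles Foxp3CreERT2, a tamoxifen-inducible Cre recombinase driven from the Foxp3 locus, and Rosa26YFP, a fluorescent reporter. The source label also traces the cells to a bone marrow haematopoietic cell. How they were activated and whether animals were pooled is not stated. There are 2 libraries, technical replicates 1 and 2 of biological replicate 1, in 1 group with no control. The peak lists describe both libraries together, so no value has a replicate error and nothing below is a test between conditions.

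Regulatory T cells restrain other immune cells through surface molecules, secreted factors and metabolic effects, and their identity is held by the transcription factor Foxp3. Several surface proteins are used to recognise them, although most are also found on other cells. Active genes usually have an open promoter and further open stretches in introns or between genes, where transcription factors can bind.

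Neuropilin-1 (Nrp1) is a co-receptor for class 3 semaphorins and vascular endothelial growth factor and is used to mark regulatory T cells of thymic origin. Gpr83 is a G protein-coupled receptor. Izumo1r, once named Folr4 and also known as Juno, is a folate receptor relative held in the membrane by a lipid anchor. Cd81 is a tetraspanin, a membrane organiser that also serves in the B cell co-receptor. Ly6a, or Sca-1, is a small lipid-anchored protein of activated lymphocytes and haematopoietic stem cells. Capg is the cytosolic member of the group and caps the ends of actin filaments.

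The sequences below are those on which the description turns: the 2 strongest of the 25 regions, the strongest region of each further gene outside promoters, and a region between Gpr83 and Izumo1r. Each is the 201 bp centred on the strongest summit, read from the GRCm38.p6 assembly of mm10 and written 5′ to 3′, and capitals mark letters of the searched motifs given further on.

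Capg, 5.49 kb upstream (chr6:72538802-72539002, plus strand): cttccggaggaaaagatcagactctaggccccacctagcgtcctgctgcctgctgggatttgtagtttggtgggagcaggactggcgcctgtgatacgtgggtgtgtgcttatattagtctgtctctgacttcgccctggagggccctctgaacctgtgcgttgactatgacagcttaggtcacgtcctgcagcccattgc
Nrp1, intron 9 (chr8:128473957-128474157, plus strand): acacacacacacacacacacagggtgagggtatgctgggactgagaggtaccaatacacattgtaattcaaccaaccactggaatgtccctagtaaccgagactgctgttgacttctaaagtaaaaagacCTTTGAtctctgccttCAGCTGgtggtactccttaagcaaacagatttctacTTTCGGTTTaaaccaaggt
Izumo1r, 22.9 kb upstream (chr9:14926702-14926902, plus strand): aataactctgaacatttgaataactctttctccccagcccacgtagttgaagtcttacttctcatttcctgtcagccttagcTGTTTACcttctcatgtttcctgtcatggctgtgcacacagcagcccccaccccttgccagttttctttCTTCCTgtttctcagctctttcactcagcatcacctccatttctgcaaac
Gpr83, intron 3 (chr9:14867110-14867310, plus strand): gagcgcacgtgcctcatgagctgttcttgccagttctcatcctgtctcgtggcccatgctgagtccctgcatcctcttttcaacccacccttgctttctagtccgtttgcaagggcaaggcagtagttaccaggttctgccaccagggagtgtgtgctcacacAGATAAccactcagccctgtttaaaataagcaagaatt
Izumo1r, between Gpr83 and Izumo1r (chr9:14884664-14884864, plus strand): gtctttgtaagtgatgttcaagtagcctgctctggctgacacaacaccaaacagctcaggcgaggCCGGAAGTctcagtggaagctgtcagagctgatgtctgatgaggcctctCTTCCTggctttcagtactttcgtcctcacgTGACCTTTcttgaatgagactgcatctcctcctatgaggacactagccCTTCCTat
Ly6a, 3′ side (chr15:74992832-74993032, plus strand): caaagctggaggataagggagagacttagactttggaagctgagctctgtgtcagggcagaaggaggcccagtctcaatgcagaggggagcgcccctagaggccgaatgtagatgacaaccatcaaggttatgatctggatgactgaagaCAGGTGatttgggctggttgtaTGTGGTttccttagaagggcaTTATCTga

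The Capg sequence has no capitals because no searched motif was found in it. Promoter sequences of RefSeq on GRCm38.p6, from 250 bases before to 50 after a start, matched 5 of the 6 genes. The neighbours Gpr83 and Izumo1r are shown because their promoters differ most in CG dinucleotides, which are in capitals.

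Gpr83 promoter (chr9:14859960-14860259, plus strand): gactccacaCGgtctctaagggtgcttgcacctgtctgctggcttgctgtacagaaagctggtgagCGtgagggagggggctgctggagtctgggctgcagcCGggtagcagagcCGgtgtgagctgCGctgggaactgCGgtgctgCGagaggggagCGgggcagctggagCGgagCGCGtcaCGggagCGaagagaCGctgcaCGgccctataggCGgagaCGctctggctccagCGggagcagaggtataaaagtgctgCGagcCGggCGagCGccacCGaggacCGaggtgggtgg
Izumo1r promoter (chr9:14903718-14904017, minus strand): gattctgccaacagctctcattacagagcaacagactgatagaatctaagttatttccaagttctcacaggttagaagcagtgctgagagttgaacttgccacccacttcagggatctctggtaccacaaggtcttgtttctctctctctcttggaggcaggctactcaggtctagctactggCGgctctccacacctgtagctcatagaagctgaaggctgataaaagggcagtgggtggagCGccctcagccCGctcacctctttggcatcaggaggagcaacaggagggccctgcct

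The Gpr83 stretch holds 24 CG dinucleotides and the Izumo1r stretch 3. Cd81 has 23, Nrp1 14 and Capg 7, beside a median of 7 over 32851 RefSeq promoters of 300 bp. Regions of the thresholded list overlapped 4 of the 5 stretches, all but that of Capg.

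All 6 genes had at least 1 region in the thresholded list, as did 58.2% of all protein-coding genes. Nrp1 had 9 regions, Izumo1r 6, Capg 5, Gpr83 3, and Cd81 and Ly6a 1 each. As many regions as Nrp1 were found at 1.34% of protein-coding genes, as many as Izumo1r at 3.61%, as many as Capg at 5.39% and as many as Gpr83 at 14.2%. Long genes have more room for regions. Among genes of 0.5 to 2 times the same length, as many regions were found at 5.53% for Nrp1, 1.52% for Izumo1r, 3.09% for Capg, 7.70% for Gpr83, 62.1% for Cd81 and 40.1% for Ly6a. Cd81 and Ly6a therefore stood among the common counts, and the other 4 genes among the less common ones.

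A promoter region, meaning a region within 1000 bp of any TSS of the gene, was present at 5 of the 6 genes, against 49.1% of all protein-coding genes. Ly6a was the gene without one. The pseudoreplicated list, which is longer and holds weaker regions, derives from the same alignment. It held the 25 regions with the same intervals and 23 more, 48 in all, and is no separate check of the 25. It held a promoter region at 6 of 6 genes, against 55.7% of protein-coding genes, and any region at 6 of 6, against 68.4%. By gene it held 18 regions for Nrp1, 10 for Izumo1r, 7 for Capg, 6 for Gpr83, 5 for Ly6a and 2 for Cd81. The 23 further regions had signal values from 2.30 to 9.45 and a global IDR from 0.0664 to 0.388, and 12 of them were at that highest IDR.

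The signal value of a region is the authors' enrichment at its strongest summit, a level per region that can be ranked within this list. Over the 25 regions it ran from 3.59 to 24.3 with a median of 8.62, beside a median of 13.6 over all 26090 regions. Only 8 of the 25 lay above that overall median, and 13 lay below 9.89, the lower quartile of the list. The 7 promoter regions had a median of 8.47, beside 15.4 for all promoter regions. The 10 regions in introns had 7.91, beside 12.1. The 6 intergenic regions had 14.2, beside 13.1. Promoters and introns of these genes were thus mostly of low signal for their kind. The intergenic regions were spread widely, from above 10.1% of all intergenic regions at Ly6a to above 96.2% at Capg. The cells were measured in bulk, so fewer cells with an open site and less opening per cell cannot be told apart.

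**Figure D1:**
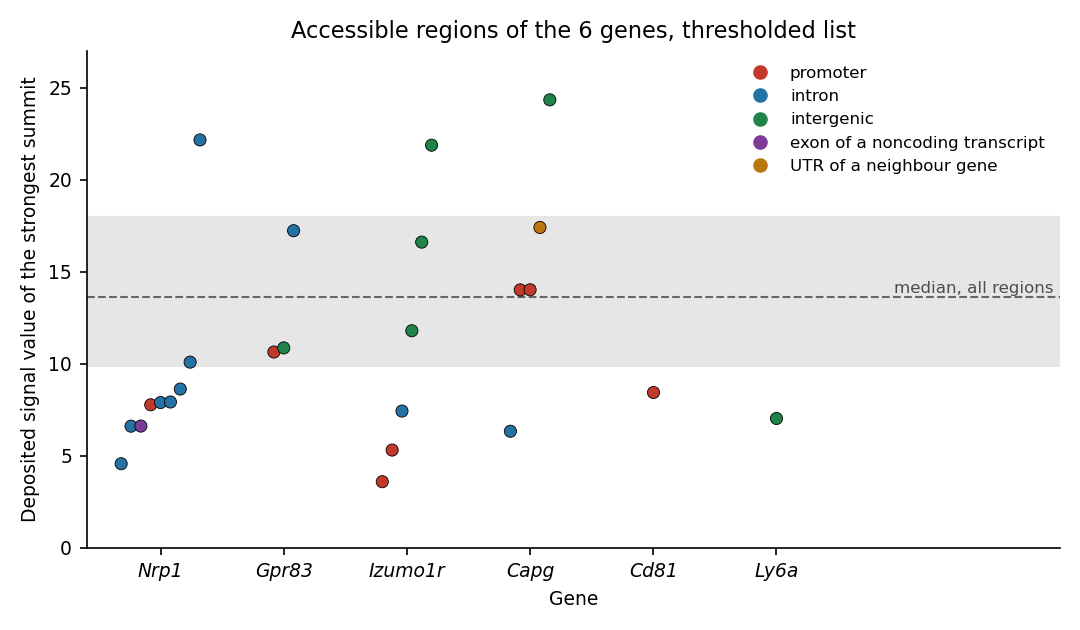
Signal value (vertical axis, the authors' enrichment at the strongest summit, no unit) of each of the 25 thresholded regions by gene, coloured by location, with the median (dashed) and quartile range (grey band) of all 26090 regions. Capg, Nrp1 and Izumo1r each have 1 region above 20, and the Cd81 and Ly6a regions lie below the band.

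At all 4 genes with both kinds of region, the strongest region outside a promoter had a higher signal than the strongest promoter region. The value was 22.2 against 7.77 at Nrp1, a ratio of 2.85. It was 21.9 against 5.31 at Izumo1r, a ratio of 4.12, 24.3 against 14.0 at Capg, a ratio of 1.74, and 17.2 against 10.6 at Gpr83, a ratio of 1.62. The same order held at 50.04% of the 4552 protein-coding genes with both kinds of region. Among the 2672 of them with 3 or more regions, as these 4 genes have, it held at 62.0%.

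**Figure D2:**
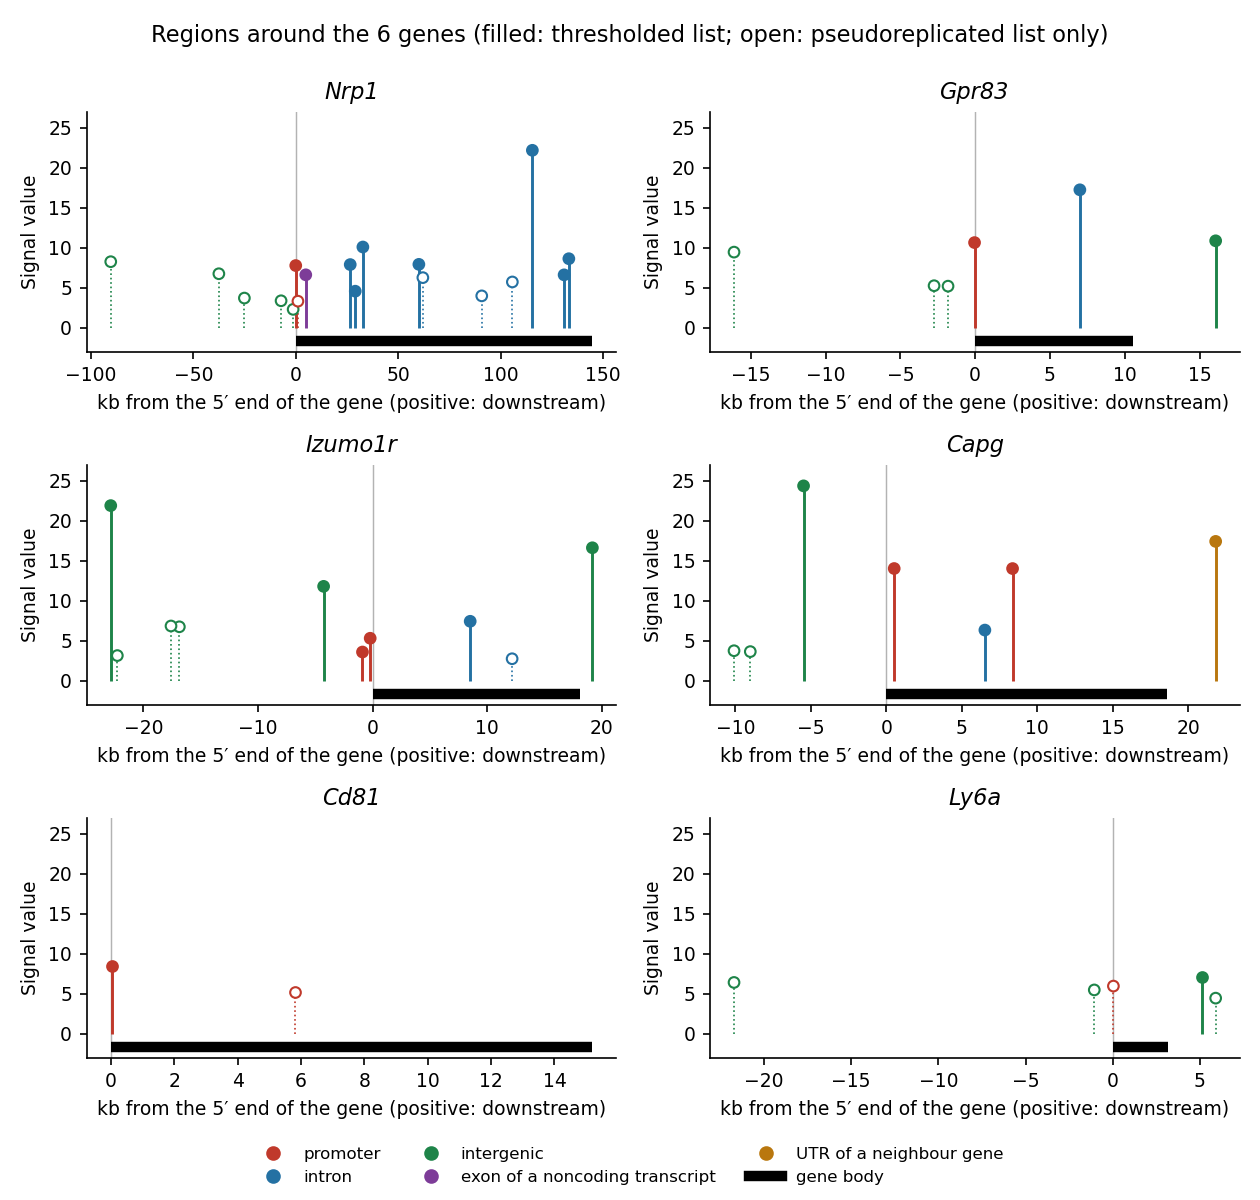
Signal value of each region (vertical axis) against its distance in kb from the 5′ end of the gene in the direction of transcription, with filled points for the thresholded list and open points for regions of the pseudoreplicated list alone. Black bars are the gene bodies; at Nrp1, Gpr83, Izumo1r and Capg the tallest point lies away from the 5′ end.

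Nrp1 (ENSMUSG00000025810.9) lies on the plus strand at chr8:128358604-128503363, a body of 144.8 kb. All 9 of its thresholded regions touched the gene body. The promoter region, chr8:128357755-128359062, was the widest of the 25 at 1308 bp and held 4 summits, with a signal of 7.77 (−log10 p 57.2). It covered the start of a retained-intron transcript, and its edge lay 222 bp short of the start of the protein-coding transcript, which no region of either list covered. The pseudoreplicated list added a weak region of 363 bp on the far side of that start, 220 bp from it, with a signal of 3.32.

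The strongest Nrp1 region was deep in the gene. It lay in intron 9 of 16, at chr8:128473797-128474425, 115 kb from the nearest annotated start, with a signal of 22.2 (−log10 p 184). That is above 90.3% of all regions and above 95.3% of intronic ones. Soft-masked repeat sequence made up 42.0% of it, the highest share among the 25 regions, beside a median of 8.30% over all regions, and the stretch printed above opens with a run of ac. The next strongest were at chr8:128390979-128391706 in intron 2, with a signal of 10.1, and at chr8:128491738-128492033 in intron 12, with 8.62. The weakest, at chr8:128387248-128387993 in intron 2, had 4.57. The other 4 had signals from 6.61 to 7.92, and 3 of these 4 lay in intron 2 of the coding transcript too, so that this intron held 5 of the 9 regions. Of the 9 Nrp1 regions in the pseudoreplicated list alone, 5 were upstream of the gene, the farthest at 90.4 kb with a signal of 8.25 (IDR 0.213).

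The genes beside Nrp1 are far away. Pard3 ends 746 kb below it and Itgb1 begins 182 kb above it, with 3 thresholded regions each.

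Gpr83 (ENSMUSG00000031932.14, chr9:14860210-14870789, plus strand) and Izumo1r (ENSMUSG00000031933.17, chr9:14885814-14903949, minus strand) are neighbours that point towards each other, with 15025 bp between their 3′ ends. Gpr83 had 3 regions. Its promoter region, chr9:14859902-14860713, had a signal of 10.6 and 3 summits and covered the starts of both coding transcripts. The strongest was chr9:14866978-14867369 in intron 3 of 3, with 17.2, above 81.7% of intronic regions. The last, chr9:14876003-14876868, lay past the 3′ end with a signal of 10.9. All 3 had a global IDR under 0.01, the highest being 0.00984.

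Izumo1r had 6 regions, and its promoter was the weakest part. The promoter region at chr9:14903685-14904286 covered all 5 annotated starts with a signal of 5.31, above only 2.84% of promoter regions. A second region within 1000 bp of the start, chr9:14904710-14904992, had 3.59, the lowest value of the 25 and above only 0.414% of the whole list. Upstream the values were higher. The region 4.27 kb upstream, chr9:14907961-14908584, had a signal of 11.8 (−log10 p 171). The region 22.9 kb upstream, chr9:14926488-14927009, had 21.9 and 254, above 92.2% of intergenic regions. Each of these upstream regions had 1 summit. The signal and the p-value need not rank regions alike, since the 11.8 of the nearer one is below the overall median while its −log10 p is the fifth highest of the 25.

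Downstream of the main Izumo1r transcripts, chr9:14895283-14895580 had a signal of 7.43. It lies inside the gene body only because 2 of the 5 annotated coding transcripts run on that far. Transcript ENSMUST00000034409.13 ends before it, at position 14900023. The last region, chr9:14884621-14885179 with a signal of 16.6, lies between the genes. Its summit is 18990 bp from a start of Izumo1r and 19424 bp from a start of a Gpr83 transcript with a retained intron, so its assignment to Izumo1r is nearly a tie. Given to Gpr83 instead, it would leave 5 regions at Izumo1r and make 4 at Gpr83. The next gene above Izumo1r is Panx1, 98.2 kb away with 7 regions, and the next below Gpr83 is Mre11a, 23.1 kb away with 1.

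**Figure D3:**
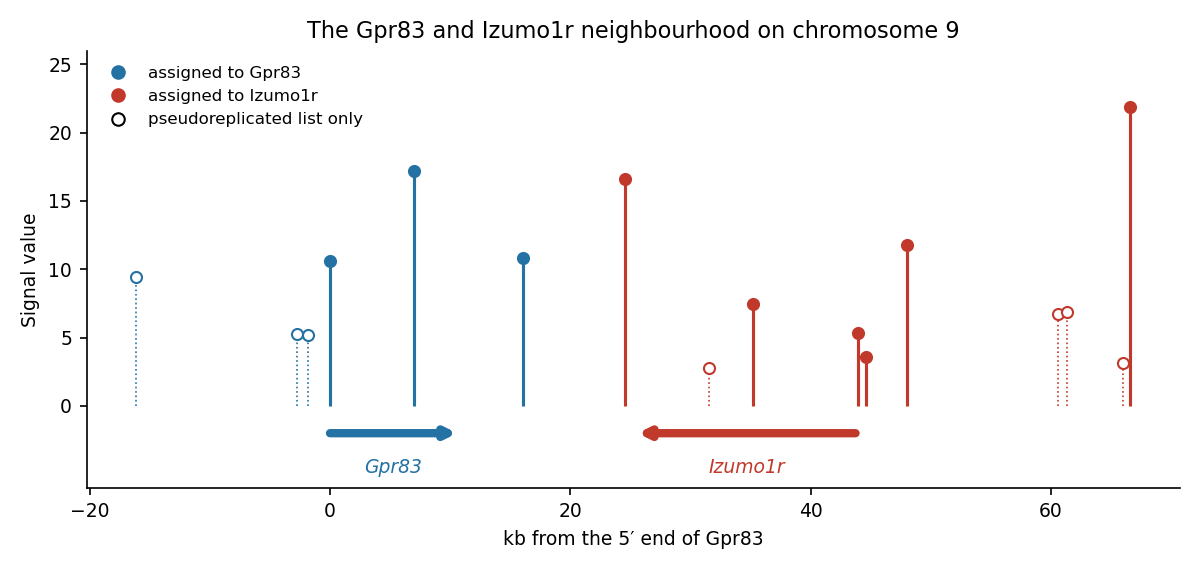
Signal value (vertical axis) of the regions of Gpr83 and Izumo1r against distance in kb from the 5′ end of Gpr83, with arrows for the gene bodies in the direction of transcription and open points for the pseudoreplicated list alone. The Izumo1r promoter points, 5.31 and 3.59, are lower than every other thresholded point in the window, and the highest, 21.9, is 22.9 kb upstream of Izumo1r.

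Cd81 (ENSMUSG00000037706.17, chr7:143052739-143067934, plus strand) had 1 region, at its promoter. It spanned chr7:143052645-143053654, 1010 bp with 3 summits, and had a signal of 8.47 and a global IDR of 0.0237. It held 78 CG dinucleotides, the most among the 25 regions. It also overlaps R74862, an antisense noncoding gene on the minus strand whose 5′ end, at position 143053686, lies just past the region, so the opening could belong to either gene and cannot be told apart. No region lay in the rest of the gene body in the thresholded list. The pseudoreplicated list had a further one, chr7:143058284-143058640, at a downstream coding start, with a signal of 5.198 at an IDR of 0.388. The neighbours Tspan32, 33.1 kb below, and Trpm5, 1.22 kb above, had 5 regions and 1.

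Ly6a (ENSMUSG00000075602.10, chr15:74994877-74998031, minus strand) had 1 region, and it was not at the gene. At chr15:74992809-74993076 it lay past the 3′ end, 4.70 kb from the nearest start, with a signal of 7.06, above only 9.85% of all regions. Its IDR of 0.0396 was the highest, and so the least reproducible, of the 25. The pseudoreplicated list held a Ly6a promoter region, chr15:74997851-74998146, with a signal of 5.96 (IDR 0.185), and 3 others with signals from 4.45 to 6.41.

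That promoter region is an exact copy of another. Its 296 bp recur without a mismatch at chr15:75048757-75049052, over the start of the next gene, Ly6c1, inside a run of 451 identical bases (chr15:74997702-74998152 and chr15:75048608-75049058). The Ly6c1 copy also had a region in the pseudoreplicated list alone, with a signal of 5.64 (IDR 0.170). Reads inside the identical run cannot be told apart by sequence, and how reads with several matches were treated is not stated, so neither value can be given to 1 gene. The region next to it, chr15:74998844-74999263 with a signal of 5.48, has a copy of 98.8% identity near Ly6c1, where neither list has a region. The region at chr15:74991940-74992254, with 4.45, has a copy of 93.7% identity nearest to Ly6c2, under a thresholded region with a signal of 12.7. The region at chr15:75019461-75019862, with 6.41, has a copy of 80.7% identity under a region of the pseudoreplicated list alone, with 7.09. All other matches of these last regions overlapped no region. The thresholded Ly6a region is repeated too, with 12 copies found in and around the Ly6 cluster. Each aligned over 87.7% or more of its length. The closest was less similar, with 83.5% identity, and none of the 12 overlapped a region.

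Capg (ENSMUSG00000056737.14, chr6:72544391-72562983, plus strand) had the strongest region of the 6 genes. It lay 5.49 kb upstream at chr6:72538520-72539122, with 1 summit, a signal of 24.3 (−log10 p 349), above 95.0% of all regions. Within the gene, 2 regions were at annotated starts with nearly the same signal. The first, chr6:72544221-72545091, covered the outermost starts with 14.02 and 3 summits. The second, chr6:72552519-72553243, covered the start of transcript ENSMUST00000126101.2 inside intron 1 with 14.01, and its −log10 p was 224 against 112.

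Between them is a group of Capg starts without a region. It runs from position 72547940 to 72549652 and includes the start used by RefSeq. The nearest region of either list was 1115 bp to 2827 bp away from those starts. An intronic region, chr6:72550767-72551062 with a signal of 6.33, lay just downstream. The fifth region, chr6:72565883-72566358 with a signal of 17.4, lies past the 3′ end of Capg and in the last exon of Elmod3, the neighbour on the minus strand, where it falls in the 3′ UTR. It counts for Capg by the nearest start and for Elmod3 by the gene body.

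The ranked list gives each peak a ranking value in each of the 2 inputs that were compared, on a −log10 p scale. All 25 regions lay within 2-fold between the inputs, as did 98.2% of all thresholded regions. The IDR compares these same inputs, and the list was filtered on it, so this closeness partly follows from the filter. Input 1 was the higher for 12 of the 25. The ratios of input 1 to input 2 ran from 0.545 at the Nrp1 region chr8:128491738-128492033, 16.6 against 30.5, to 1.84 at the Izumo1r region 22.9 kb upstream, 172.5 against 93.8. What the inputs were is not stated. The ratios therefore cannot be read as an error between libraries or animals.

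**Figure D4:**
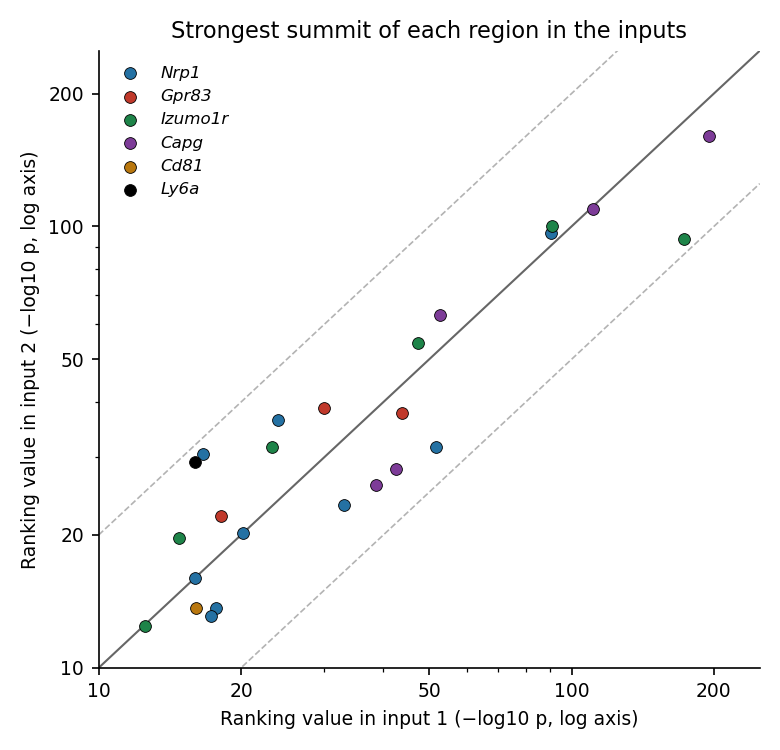
Ranking value of the strongest summit of each of the 25 regions in input 1 (horizontal axis) and input 2 (vertical axis), on a −log10 p scale with log axes, coloured by gene. The solid line marks equal values and the dashed lines a 2-fold difference. All points lie between the dashed lines, for regions that had already passed the IDR threshold.

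Short sequence words were searched on both strands within 100 bp of each strongest summit, and the same was done for all 26090 regions. The 18 words stand for factor families known in T cells, and a match is a description of letters, not of binding. In the 25 regions there were 66 matches of 14 words, none overlapping another, and 2 regions had no match, the Nrp1 region at chr8:128491738-128492033 and the strongest Capg region. The ETS word AGGAAG was found in 14 of the 25 (56%), beside 39.4% of all regions. The RUNX word TGTGGT was found in 6 (24%), beside 21.2%. The E protein words CAGCTG and CAGGTG were found in 4 (16%) and 5 (20%), beside 12.4% and 15.1%. The TCF and LEF word TCAAAG was found in 4 (16%), beside 13.0%. The NFAT word TGGAAA and the IRF word AAANNGAAA were found in 3 each (12%), beside 13.3% and 10.5%. These shares depend on location, and 7 of the 25 regions were promoter regions, beside 11022 of the 26090. Outside promoters the shares over all regions were 47.5% for AGGAAG, 29.4% for TGTGGT, 13.7% for CAGCTG and 17.2% for CAGGTG. They were 17.1% for TCAAAG, 16.6% for TGGAAA and 14.3% for AAANNGAAA. In promoter regions each of these shares was lower.

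Some words occurred in few of the regions. The forkhead word TGTTTAC was found once, beside 3.09% of all regions, in the Izumo1r region 22.9 kb upstream, with its first base 18 bp from the summit. The longer ETS word CCGGAAGT was found once, beside 4.24% of all regions and 1.43% of those outside promoters, in the region between Gpr83 and Izumo1r. That region also held the NR4A word AAAGGTCA, found in 2 regions (8%) beside 0.912% of all, the other being an Nrp1 intron 12 region. The AP-1 word TGANTCA was found once, beside 9.39%, in the inner Capg promoter region. The GATA word AGATAA and the STAT word TTCNNNGAA were found in 2 each (8%), beside 7.23% and 5.95%, or 10.2% and 7.09% outside promoters. The SP word GGGCGG was found in 2 (8%), beside 31.1% of all regions, 57.9% of promoter regions and 11.5% of regions outside promoters. It occurred 3 times in the Cd81 promoter and once in Nrp1 intron 2. The words GGGANTTTC (NF-kB), CCACACCC (KLF), TGACGTCA (CREB) and AGGGGGCGC (CTCF) were in none of the 25, beside 1.49%, 3.15%, 2.11% and 1.48% of all regions.

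The side of the overall share on which a word fell depended on the window for 6 words. Within 50 bp of the summit, TGTGGT was in 8% of the 25 regions beside 14.0% of all, CAGGTG in 4% beside 8.07%, and AAANNGAAA in 4% beside 5.70%. AAAGGTCA and AGATAA were in none, beside 0.395% and 3.25%. These 5 words went from above the overall share to below it. CCGGAAGT went the other way, with 4% beside 3.04%. AGGAAG stayed above it, with 44% beside 27.1%, or 33.8% outside promoters.

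The relatives and partners of the 6 genes were read beside the shares over all protein-coding genes, 58.2% with any region and 49.1% with a promoter region. Of 10 genes listed for the neuropilin and class 3 semaphorin system, 6 had a region and 5 a promoter region, near those shares. Both counts include Sema4a, a class 4 semaphorin. Nrp1 had the most with 9. The receptor partners Plxna1 and Plxnd1 followed with 4 each, and Gipc1, an adaptor that binds the neuropilin tail, had the strongest region at 22.6. Nrp2, the other neuropilin, had none. Of 5 genes of folate receptors and transporters, 2 had a region, both at a promoter. These were Izumo1r with 6 and the reduced folate carrier Slc19a1 with 2 and a signal up to 18.9, while Folr1, Folr2 and Slc46a1 had none.

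Of 8 gelsolin family genes, 5 had a region and 4 a promoter region, again near the shares over all genes. Capg had the most with 5, Scin and Svil had 3 each, and Gsn, gelsolin itself, had 1 with a signal of 24.3. Of the 14 tetraspanins chosen for the list, all had a region and 11 a promoter region. The choice was made with earlier results known, so these shares cannot be read as those of the family. Cd82 had 12 and Tspan14 10, the strongest were at Tspan3 and Tspan4 with 18.96 and 18.8, and Cd81 was among the 6 members with 1. Of 14 genes of the Ly6 cluster, 7 had a region, near the share over all genes, and 2 a promoter region, a lower share than the 49.1% of all genes. Each Ly6a region of the pseudoreplicated list had 10 to 17 sequence matches of varying identity in and around this cluster. Some matches cover only part of a region, so these are not counts of whole copies. The treatment of reads with several matches is not stated, and its part in the regions counted at the Ly6 cluster was not tested. Ly6e had 5 with a signal up to 21.8, Ly6c2 and Lynx1 had 2 each, and Ly6c1 had 1 of 19.1 away from its promoter.

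All 15 other surface genes of regulatory T cells had a region, beside 58.2% of all protein-coding genes, and 10 had a promoter region, beside 49.1%. Their median was 6 regions, and 6 or more were found at 3.61% of all protein-coding genes. This list too was chosen with earlier results known, so its counts cannot be read as those of such genes in general. Ctla4, an inhibitory receptor, had 14 and Cd44, an adhesion receptor, had 12. The strongest were at Nt5e, the ectoenzyme CD73, with 32.9 and Lrrc32, which holds latent transforming growth factor beta at the surface, with 23.1. Nrp1 and Izumo1r were at or above that median, and Capg, Gpr83, Cd81 and Ly6a were below it.

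Markers of the labelled cell type and of others were read in the same way, beside a promoter region at 49.1% of all protein-coding genes. A promoter region was present at 6 of 7 regulatory T cell markers, Foxp3 among them with 2 regions, and at 6 of 8 T cell markers. It was present at 2 of 6 CD8 and NK cell markers, 2 of 5 B cell markers and 1 of 3 erythroid markers. Nrp1, Cd81 and Ly6a are also known in myeloid cells or endothelium. None of the 7 myeloid and dendritic cell markers and none of the 4 endothelial markers had a promoter region in the thresholded list. Elsewhere 1 gene of each of those lists had a region, Itgam and Cdh5. In the pseudoreplicated list, where 55.7% of all genes had a promoter region and 68.4% any region, 3 of 3 erythroid markers and 1 of 7 myeloid markers had a promoter region. Any region was then present at 4 of 7 myeloid markers and still at 1 of 4 endothelial markers. The part of other cells in the regions of the 6 genes was not tested.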

How the data were processed

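Both libraries were profiled by ATAC-seq, and 3 series-wide peak lists on mm10 were used. Per the README of each library, all lists derive from 1 filtered alignment, so each value covers both libraries. Not given in the sources used here are the aligner, peak caller, read filters, any shift of read ends for the transposase and the treatment of reads with several matches. Alignments and tracks were not used here, and the read depth is unknown.

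As deposited, the signal value is an enrichment from the peak caller whose reference is not stated. The deposited −log10 columns hold the p-value and q-value of the caller, both kinds of IDR, and a ranking value for each input. The deposited score follows from the global IDR in the ranked list. All are the authors' own per-peak values, used only to describe, rank or filter peaks.

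Peaks overlapping by 1 bp or more were merged, keeping the strongest summit. Genes came from GENCODE M21, the coding genes on the autosomes and sex chromosomes, with the starts of all their transcripts. Locations were read at the strongest summit, promoters first. Copies of Ly6a regions within 100 kb of the Ly6 cluster were sought with blastn 2.17.0 at an E-value of 1e-05. Other steps used Python 3.11.15, numpy 2.4.6 and pandas 2.3.3, and the assignment, merging and motif search were tested on simulated data. With 1 group no test between samples was made.

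The members, lists and motifs were chosen with earlier results of these data known. Named were the 6 genes, their regions (beyond 6, the promoter regions, the 3 strongest others and the weakest), the next coding gene on each side, and from each list the 2 genes with most regions and the 2 with the strongest region. Relatives with no region, Itgam, Cdh5 and the genes named for copies or antisense overlap were named after their values were seen. Of the listed genes, Ly6m and the old name Folr4 were not found in the annotation. Alternatives covered the pseudoreplicated list, a global IDR of 0.01 or below, unmerged peaks, assignment rules, promoter windows of 500 and 2500 bp, 1 start per gene and a motif window of 50 bp.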

Additional observations from a re-analysis of the deposited data

How the results depend on the processing

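With 1 group and lists that pool both libraries, no library could be left out and no error between animals can be given. No paired analysis was possible because there is 1 group. The 25 regions became 48 in the pseudoreplicated list and 39 when each summit counted on its own, both by construction, and 17 at a global IDR of 0.01 or below. They numbered 22 by the nearest start only, 24 within 20 kb, 25 when the route by gene body asked for the summit inside it, with the route by nearest start kept, and 26 with 1 start per gene. The median signal of 8.62 moved to 6.68 in the pseudoreplicated list, 11.8 at an IDR of 0.01 or below, 7.67 over unmerged peaks, 9.28 by the nearest start only and 8.55 within 20 kb. The first 3 follow from adding weak or removing weak regions or summits. The nearest start only left out the Nrp1 regions 115, 130 and 132 kb from a start, with signals of 22.2, 6.61 and 8.62. The limit of 20 kb left out the Izumo1r region 22.9 kb upstream, with a signal of 21.9. The strongest regions of Nrp1 and Izumo1r thus depended on the assignment rule. The median over all regions was 13.6 in the thresholded list and 8.65 in the pseudoreplicated one.

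Genes with a promoter region numbered 6 in the pseudoreplicated list and 4 at an IDR of 0.01 or below, where Cd81 had none and Ly6a and Cd81 had no region at all. They numbered 5 under promoter windows of 500 and 2500 bp and with 1 start per gene. Of the 42 counts per gene under an alternative, 24 equalled the reported count, 12 were higher and 6 were lower. With the motif search narrowed to 50 bp, pairs of a region and a word fell from 50 to 27, as a shorter window holds fewer letters. The unknown depth limits every value, and a locus without a region may hold openings below what these lists record.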
